A study of Mus musculus with 6 samples.

Results

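The suprabasal epidermal keratins Krt1, Krt2, Krt10, Krt77, Krt78, Krt79 and Krt80 were followed in sorted epidermal basal cells of mouse skin. They are 7 of 18193 genes on the array, taken by name from the platform annotation. The rule used no values, but the members were chosen with earlier results of these data known. Each lay on 1 probe set that names no other gene, and all 7 were called present on all 6 arrays, so that all 42 values are measurements above background. All mice were female C57BL/6, given as 10 weeks old in the sample labels, and none carried a transgene or received a treatment. Cells came from ventral skin at 16 days post coitum (dpc), from dorsal skin at 16 dpc and from ventral skin of virgin mice, with 2 arrays in each of the 3 groups. Dorsal skin of virgin mice was not analysed here. The skin was trypsinised in the cold, the dermis was removed, and living cells positive for α6-integrin were sorted, with no marker named against follicle, immune or mammary cells that also carry this integrin. Values are MAS5 signals, a brightness per probe set in arbitrary units that was scaled to the same trimmed mean on every array.

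Keratins are the intermediate filament proteins of epithelia, and each filament pairs a type I with a type II chain. Basal keratinocytes carry the pair Krt5 and Krt14. When a cell leaves the basement membrane it switches to Krt1 and Krt10 in the spinous layer, and in some body sites Krt2 is added in the upper layers. Krt10 is the type I chain in the set and the other 6 members are type II chains. Krt77 and Krt78 are further type II keratins of suprabasal mouse epidermis, Krt79 marks the upper hair follicle and the duct of the sebaceous gland in mice, and Krt80 is a type II keratin of differentiating epithelia. A signal from sorted cells is an average over all of them, so that more differentiating cells in the sort and more transcript per cell cannot be told apart.

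The sort held basal keratinocytes by their markers, since all 12 measured genes of that list, among them Itga6, Krt5 and Krt14, were called present on all 6 arrays. Several markers of other cell types were absent. Tyrp1, Pmel, Mlana and Kit of 5 melanocyte genes and Col1a2, Lum and Pdgfra of 6 fibroblast genes were called present on no array. Of 5 epidermal T cell genes Cd3e and Cd3d were present on no array, and the companion layer keratin Krt75 was absent throughout. Melanocyte markers summed to 274 to 275 in 16 dpc ventral, 199 to 202 in 16 dpc dorsal and 223 to 350 in virgin ventral cells, and fibroblast markers to 190 to 193, 160 to 176 and 267 to 437 in the same order, highest in virgin cells. T cell markers were lowest there, at 393 to 459, 441 to 615 and 230 to 303. Companion layer and outer root sheath markers summed to 5262 to 8241, 6063 to 6445 and 4417 to 10952. Summed mammary markers ran from 972 to 7309 in 16 dpc ventral, from 376 to 588 in 16 dpc dorsal and from 686 to 1126 in virgin ventral cells. Of the sum on 16 dpc ventral replicate 1 the milk protein gene Csn2 made up 6185, and it stood at 699 on replicate 2. Krt8 and Krt18 of the same list went the other way against virgin ventral cells. Krt8 stood at 104 and 9.98 against 220 and 474, and Krt18 at 94.3 and 47.6 against 161 and 413. Langerhans and antigen-presenting cell markers summed to 7697 to 10303 in 16 dpc ventral and 9479 to 10407 in 16 dpc dorsal cells. In virgin ventral cells they summed to 6529 to 7240, of which Epcam made up 5138 on replicate 2. In 16 dpc ventral over virgin ventral cells Epcam had a log2 fold change of -0.32. All other genes of that list had a higher mean. Csf1r stood at 1.76 (limma adjusted p = 0.0406), Cd207 at 1.86 (0.271) and H2-Aa at 1.14 (0.248). The part of all these cell types in the keratin values was not tested. Across the arrays 47.2% to 53.3% of 45101 probe sets were called present, and the median signal ran from 61.1 to 78.9. The actin 3′ to 5′ signal ratio, a sign of RNA quality, was 3.90 on 16 dpc ventral replicate 2 and 4.47 on 16 dpc dorsal replicate 2, against 1.78 to 2.46 on the other 4 arrays. Same-numbered arrays of the 3 groups share a prefix in their column headers, so differences within each replicate number are given beside the fitted ones. With 2 arrays per group, and no label saying that they came from separate mice, p-values measure only the spread between these arrays, which may be technical.

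In the RefSeq gene table (GRCm38.p6) Krt2, Krt1 and Krt77 follow each other directly on chromosome 15, Krt79 and Krt78 are neighbours further along, Krt80 stands next to Krt7, and Krt10 lies on chromosome 11 between Krt28 and Krt12. RefSeq promoter windows, from 250 bases before to 50 bases after the annotated start, were matched by symbol for Krt2, Krt10, Krt77, Krt78 and Krt79. The windows of Krt2 (chr15:101818120-101818419), Krt10 (chr11:99389315-99389614), Krt77 (chr15:101869656-101869955) and Krt78 (chr15:101954238-101954537), all on the minus strand, are printed 5′ to 3′ because these members show the 3 kinds of signal described below: higher, near level and lower in 16 dpc ventral cells. Capitals mark the TATA box letters TATATA and TATAAA, searched on both strands, which overlap each other where both occur.
Krt2: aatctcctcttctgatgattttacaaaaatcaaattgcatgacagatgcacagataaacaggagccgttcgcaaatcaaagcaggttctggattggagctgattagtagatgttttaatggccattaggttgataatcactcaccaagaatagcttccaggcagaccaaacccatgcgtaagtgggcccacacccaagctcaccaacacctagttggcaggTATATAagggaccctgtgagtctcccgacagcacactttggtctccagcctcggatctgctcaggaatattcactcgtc
Krt10: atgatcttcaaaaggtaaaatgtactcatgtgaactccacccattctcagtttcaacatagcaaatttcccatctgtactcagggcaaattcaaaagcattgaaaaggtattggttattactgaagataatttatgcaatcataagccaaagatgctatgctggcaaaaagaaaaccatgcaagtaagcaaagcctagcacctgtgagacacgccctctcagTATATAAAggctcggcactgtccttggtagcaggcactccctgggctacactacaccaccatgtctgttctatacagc
Krt77: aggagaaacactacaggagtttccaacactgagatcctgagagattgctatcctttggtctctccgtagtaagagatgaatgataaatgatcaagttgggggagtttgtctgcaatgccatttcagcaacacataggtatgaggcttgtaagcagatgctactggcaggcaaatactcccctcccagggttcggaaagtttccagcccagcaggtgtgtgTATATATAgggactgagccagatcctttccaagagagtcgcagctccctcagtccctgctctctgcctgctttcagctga
Krt78: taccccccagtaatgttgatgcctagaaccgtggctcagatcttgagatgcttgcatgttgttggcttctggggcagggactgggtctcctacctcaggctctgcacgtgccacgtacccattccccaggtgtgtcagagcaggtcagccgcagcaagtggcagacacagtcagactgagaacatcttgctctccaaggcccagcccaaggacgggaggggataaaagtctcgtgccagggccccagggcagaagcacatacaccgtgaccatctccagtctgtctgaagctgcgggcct
TATATA began 29, 28 and 30 bases before the annotated start in Krt2, Krt10 and Krt77 and did not occur in the windows of Krt78 and Krt79. Other forms of a TATA box were not searched, so their presence in any window is not described. It was found in 5.67% of the 32851 promoter windows of this length in the table, and TATAAA, which overlapped it in Krt10, in 13.6%. The AP-1 motif TGANTCA was in 0 of the 5 windows and in 7.81% of all. The letters GGGTGTG, a match to the binding preference of Klf4, occurred in Krt2 alone among the 5 and in 7.95% of all. The letters AACCGGTT of the grainyhead factors occurred in none of the 5 and in 0.146% of all. The share of G and C was 46.3% in Krt2, 42.0% in Krt10 and 48.7% in Krt77, against 58.3% in Krt78 and 62.0% in Krt79, with a median of 52.7% over all windows. A match of letters is a description of the window and not a binding site.

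**Figure D1:**
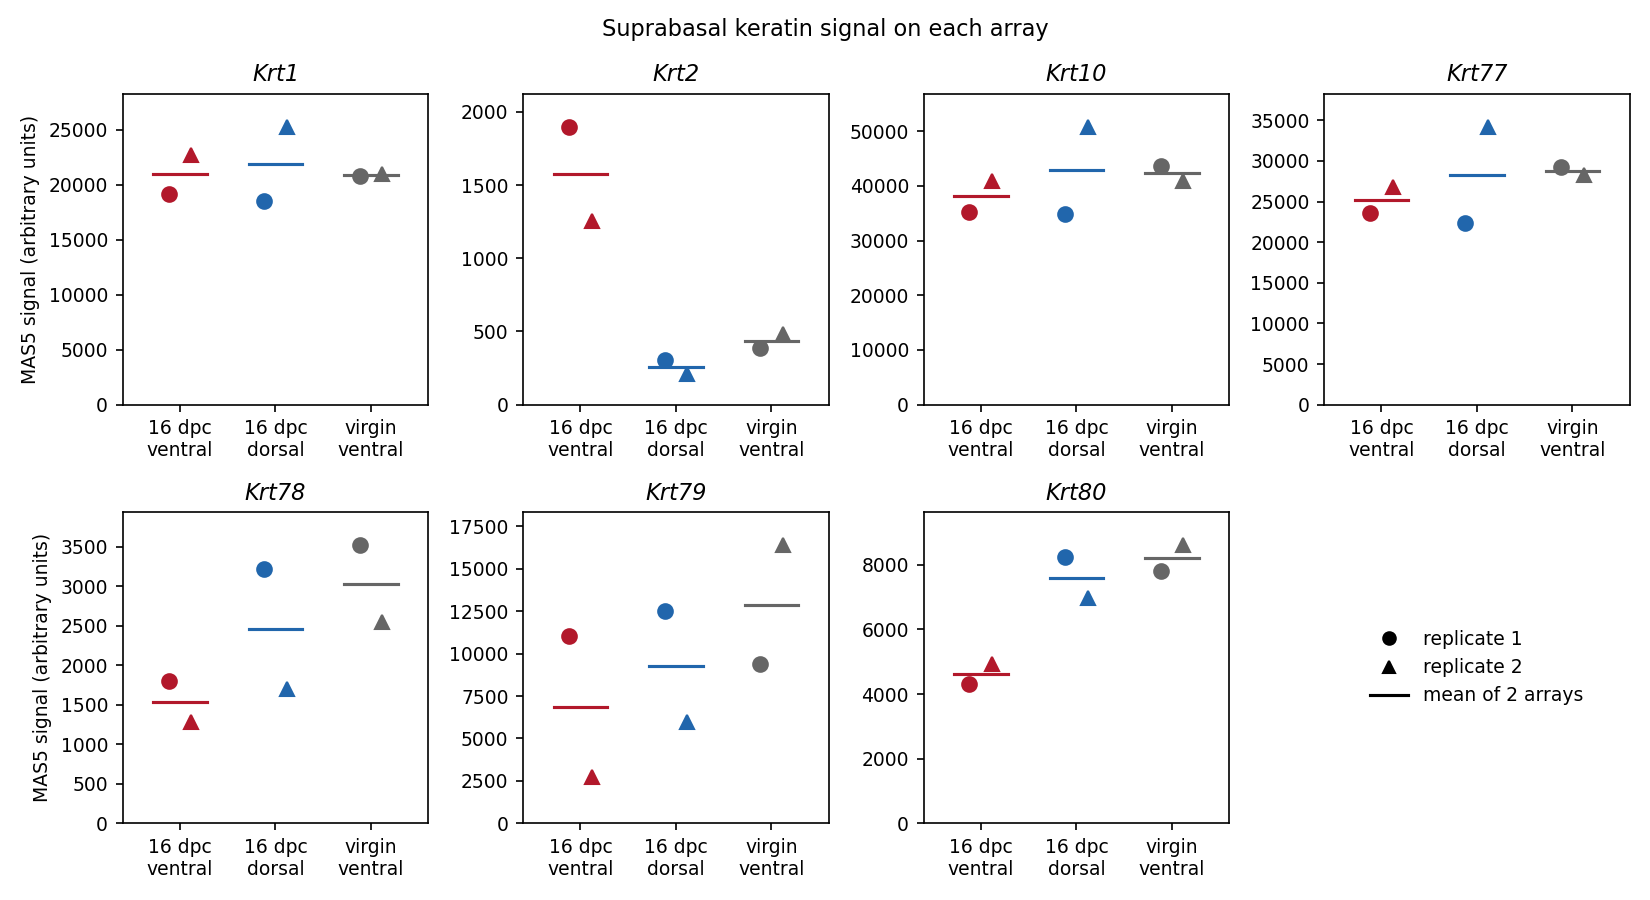
MAS5 signal of the 7 suprabasal keratins (vertical axes, arbitrary units, each starting at 0) on every array of the 3 groups, with circles for replicate 1, triangles for replicate 2 and lines for the mean of 2 arrays. Krt2 averages 1575 in 16 dpc ventral cells against 256 in 16 dpc dorsal and 435 in virgin ventral cells, Krt80 is lowest on both 16 dpc ventral arrays, and the replicates of Krt79 lie far apart.

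The 7 keratins did not move as one set. By their mean signal in 16 dpc ventral cells the members divided into a keratin above both other groups (Krt2), a pair below them (Krt78 and Krt80), a trio near the same level everywhere (Krt1, Krt10 and Krt77) and one whose replicates disagreed (Krt79). The comparison of 16 dpc ventral over 16 dpc dorsal cells sets abdominal skin against back skin of pregnant mice. Without virgin dorsal arrays, a standing difference between body sites cannot be told apart in it from an effect of stretch. By limma at an adjusted p under 0.05, 1 member rose there (Krt2) and 0 fell. Of all 10993 genes 0.0455% rose and 0.0364% fell. At an unadjusted p under 0.05 there were 2 members, Krt2 and Krt80, with 5.09% of all genes. The 2 groups did not overlap for 1 member with the higher signal (13.1% of all genes) and 1 with the lower (19.7%). With the replicate number entered as a block the counts of members were again 1 and 0 (0.1% and 0.0455% of all genes). In the comparison of 16 dpc ventral over virgin ventral cells, which asks what pregnancy changes in abdominal skin, 0 members rose and 0 fell by limma (0.136% and 0.0637% of all genes), while 3 members, Krt2, Krt78 and Krt80, had an unadjusted p under 0.05, with 11.6% of all genes. Groups did not overlap for 1 member with the higher signal, Krt2 (23.8% of all genes), and for 4 with the lower, Krt10, Krt77, Krt78 and Krt80 (19.8%). Under the block 1 member rose there, Krt2 (0.491% of all genes), and 1 fell, Krt78 (0.291%). In 16 dpc dorsal over virgin ventral cells, where body site and pregnancy both differ, 0 members passed in either direction by limma (0% of all genes in each), nor with the block (0.0728% and 0.0273%). Krt2 alone had an unadjusted p under 0.05 (7.27% of all genes). The groups did not overlap for 0 members with the higher signal (24.3% of all genes) and for 1, Krt2, with the lower (13.6%). Every pair of these comparisons shares the arrays of 1 group, so their values are not independent of each other. The study picked Krt2 from these arrays, which means that its direction here is no independent evidence. The paper then measured Krt2 by qPCR in skin tissue, not in sorted cells. It reports significantly higher levels in abdominal skin at 16 dpc than in dorsal skin at 16 dpc or virgin abdominal skin.

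Krt2 was the member with the widest differences. This type II keratin belongs to the upper spinous and granular layers, and in mice it is known as a keratin of particular body sites. Its signal was 1899 and 1252 in 16 dpc ventral cells, against 306 and 207 in 16 dpc dorsal and 386 and 484 in virgin ventral cells. Both 16 dpc ventral arrays lay above all 4 others, and both dorsal arrays lay below both virgin arrays. In ventral over dorsal cells at 16 dpc it rose 6.13-fold (log2 fold change 2.62 ± 0.28 SE, 95% interval 1.99 to 3.24, limma adjusted p = 0.0188), with nearly the same size within replicate 1 (2.634) and replicate 2 (2.597). The block gave an adjusted p of 0.00889. The call was lost without 16 dpc ventral replicate 1 (log2 fold change 2.32, adjusted p = 0.100), without virgin ventral replicate 1 (0.0584) or replicate 2 (0.0618), without a trend of the variance on level (0.125) in a fit of the 2 groups alone (0.0529), with the mean of all probe sets per gene (0.0683) and with a test for every probe set (0.163).

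Over virgin ventral cells the Krt2 signal of 16 dpc ventral cells had a mean 3.57-fold higher on the log scale (log2 fold change 1.83 ± 0.28 SE, 95% interval 1.21 to 2.46), with 2.30 within replicate 1 and 1.37 within replicate 2. The limma adjusted p was 0.0517, just outside the threshold, and 0.0260 with the block. It passed in 8 of the 17 other settings run, including the fit without both 16 dpc arrays numbered 2, which was chosen after seeing the data. Some of these settings left a group with 1 array. In settings that kept 2 arrays in every group fitted, the limma adjusted p ran from 0.0135 (only the 2 groups compared) to 0.165 (no variance trend). A test for every probe set gave 0.251. Without 1 array at a time the log2 fold change ran from 1.53 to 2.13. Between 16 dpc dorsal and virgin ventral cells the log2 fold change was -0.78 (95% interval -1.41 to -0.15, adjusted p = 0.643, and 0.349 with the block), with -0.34 and -1.22 within replicates 1 and 2. In ascending order of mean the groups were 16 dpc dorsal (256 ± 69.9, SD, n = 2), virgin ventral (435 ± 68.9) and 16 dpc ventral (1575 ± 457), and the dorsal and virgin neighbours in that order were not separated by the test.

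Krt80 and Krt78 had their lowest means in 16 dpc ventral cells, short of the threshold in the fit without the block. Krt80, a keratin found near desmosomes of differentiating epithelial cells, had a signal of 4304 and 4924 in 16 dpc ventral cells, against 8232 and 6964 in 16 dpc dorsal and 7816 and 8605 in virgin ventral cells. Its 16 dpc ventral arrays lay below all 4 others, while dorsal and virgin arrays overlapped. Relative to virgin ventral cells the log2 fold change was -0.83 ± 0.16 SE (95% interval -1.20 to -0.47, limma adjusted p = 0.113, and 0.0648 with the block), with -0.86 and -0.81 within replicates 1 and 2. Relative to dorsal cells it was -0.72 ± 0.16 SE (95% interval -1.08 to -0.35, adjusted p = 0.354, and 0.224 with the block), with -0.94 and -0.50 within replicates 1 and 2. Dorsal over virgin cells differed by -0.12 (95% interval -0.48 to 0.25, adjusted p = 0.854). Replicate 2 was 1.14, 0.846 and 1.101 times replicate 1 in 16 dpc ventral, 16 dpc dorsal and virgin ventral cells, so that the replicates of this gene lay close together.

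Krt78, a suprabasal type II keratin next to Krt79 in the genome, had a signal of 1797 and 1278 in 16 dpc ventral cells, against 3221 and 1705 in 16 dpc dorsal and 3521 and 2546 in virgin ventral cells. Ventral arrays at 16 dpc lay below both virgin arrays, whereas the higher of them exceeded dorsal replicate 2. Replicate 2 was the lower array in all 3 groups, by 0.711, 0.529 and 0.723 times in 16 dpc ventral, 16 dpc dorsal and virgin ventral cells. Within a replicate number the difference over virgin cells was therefore even, with log2 fold changes of -0.97 and -0.99. The fitted difference was -0.98 ± 0.31 SE (95% interval -1.68 to -0.29), with a limma adjusted p of 0.271 that became 0.0414 with the block. Over dorsal cells it was -0.63 (95% interval -1.32 to 0.07, adjusted p = 0.9999, and 0.294 with the block), with -0.84 and -0.42 within replicates 1 and 2. Dorsal over virgin cells stood at -0.35 (95% interval -1.05 to 0.34, adjusted p = 0.776).

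**Figure D2:**
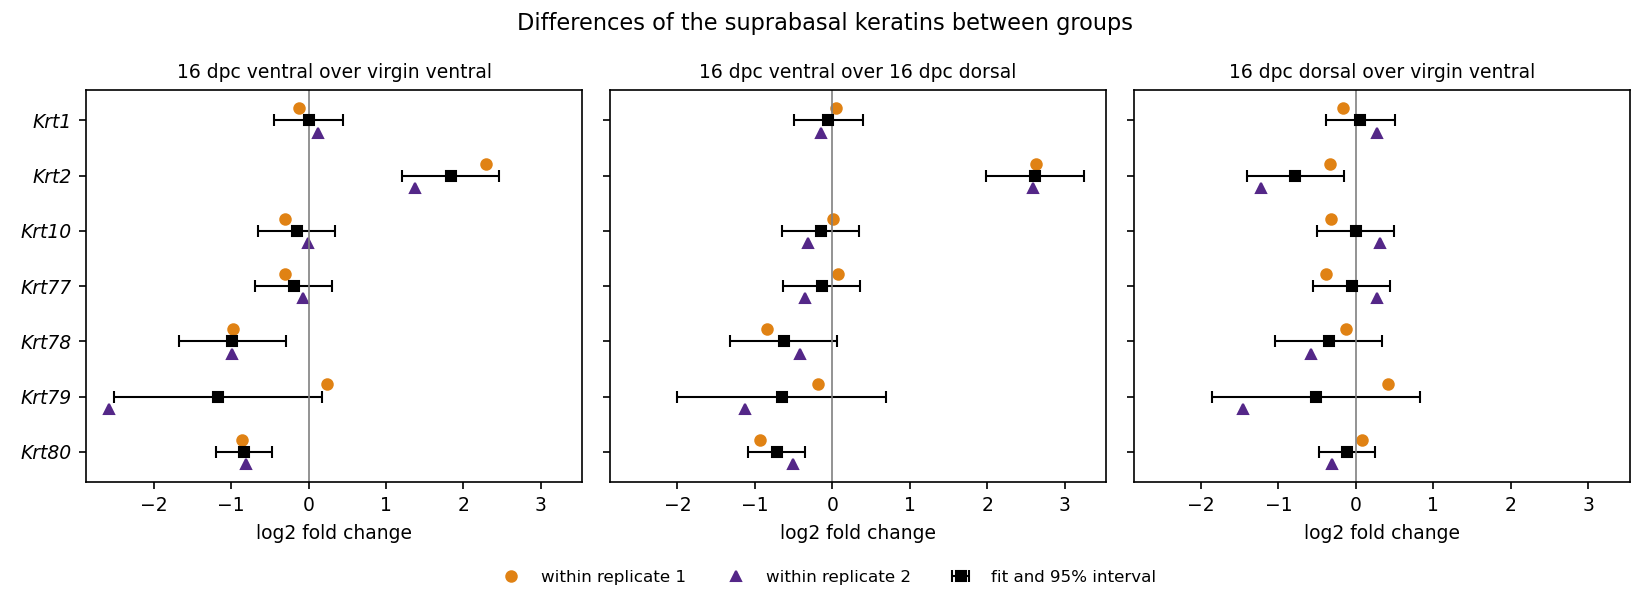
Log2 fold change of each suprabasal keratin (horizontal axis) in the 3 comparisons, with squares and bars for the limma fit and its 95% interval, circles for the difference within replicate 1 and triangles for that within replicate 2. The square of Krt2 stands at 1.83 for the virgin and at 2.62 for the dorsal contrast of 16 dpc ventral cells, the intervals of Krt80 lie below 0 in both, and the within-replicate values of Krt79 point in opposite directions over virgin cells (0.23 and -2.58).

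The signals of Krt1, Krt10 and Krt77 stayed close to one level over the groups. Krt10 lay near the top of the scale. It stood at 35280 on 16 dpc ventral replicate 1, where the highest signal was 41031, and at 34929 on 16 dpc dorsal replicate 1, with 41756. Whether saturation narrows differences between such bright signals was not tested. Krt1 and Krt10 form the main filament pair of the spinous layer. Krt1 had a signal of 19123 and 22757 in 16 dpc ventral, 18562 and 25274 in 16 dpc dorsal and 20765 and 20940 in virgin ventral cells. The groups overlapped in every comparison, with a fold of 1.0004 over virgin cells (95% interval 0.735 to 1.36, limma adjusted p = 0.9996) and 0.963 over dorsal cells (0.707 to 1.31, adjusted p = 0.9999). Changes of more than about these bounds lay outside the interval, while smaller ones cannot be told from the spread of the arrays.

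Krt10 had a signal of 35280 and 40869 in 16 dpc ventral, 34929 and 50772 in 16 dpc dorsal and 43669 and 40893 in virgin ventral cells. The ventral arrays at 16 dpc lay below both virgin arrays, the closest by 40869 against 40893, and within the range of the dorsal arrays. The fold was 0.899 over virgin cells (95% interval 0.638 to 1.27, adjusted p = 0.830) and 0.902 over dorsal cells (0.640 to 1.27, adjusted p = 0.9999). Krt77, the direct neighbour of Krt1, had a signal of 23579 and 26770 in 16 dpc ventral, 22347 and 34195 in 16 dpc dorsal and 29205 and 28213 in virgin ventral cells. It showed the same arrangement of groups as Krt10, with folds of 0.875 over virgin cells (0.619 to 1.24, adjusted p = 0.784) and 0.909 over dorsal cells (0.643 to 1.29, adjusted p = 0.9999). For dorsal over virgin cells the log2 fold changes of Krt1, Krt10 and Krt77 were 0.05, -0.005 and -0.05, with adjusted p of 0.950, 0.996 and 0.954.

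Krt1, Krt10 and Krt77 varied between arrays together with the basal keratins and with the brightest spots of each array. In 16 dpc dorsal cells replicate 2 exceeded replicate 1 by 1.36 times for Krt1, 1.45 times for Krt10 and 1.53 times for Krt77. For the basal keratins Krt5, Krt14 and Krt15 the ratios were 1.487, 1.654 and 1.501, and for the highest signal on the array 1.492. After quantile normalization, which gives every array the same distribution of signals, the ratios in dorsal cells were 1.08 for Krt1, 0.992 for Krt10 and 1.15 for Krt77. The same step left the dorsal ratio of Krt2 at 0.692 (0.677 as deposited) and that of Krt78 at 0.535 (0.529). Under quantile normalization the small differences of Krt1, Krt10 and Krt77 in ventral over dorsal cells changed sign, to log2 fold changes of 0.05, 0.04 and 0.03.

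**Figure D3:**
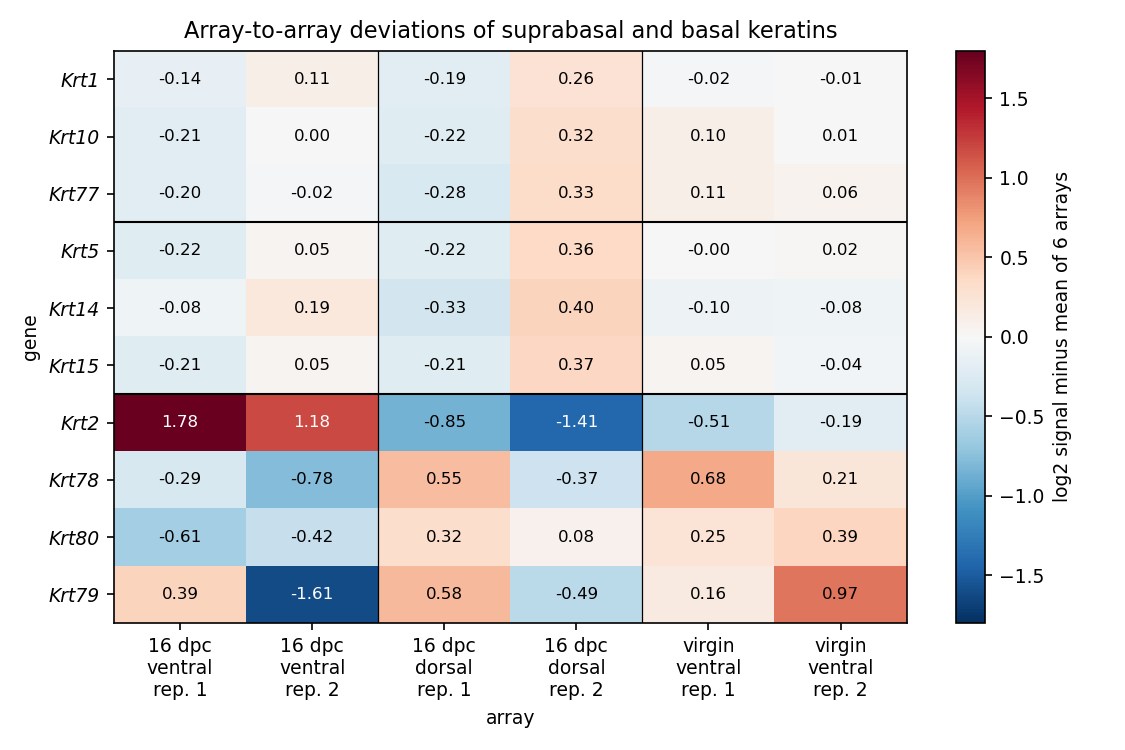
Log2 signal of each keratin on each array minus its mean over the 6 arrays (colour and printed value), with the level suprabasal keratins on top, the basal keratins Krt5, Krt14 and Krt15 in the middle and the other suprabasal keratins below. The upper 6 rows share one pattern, with 16 dpc dorsal replicate 2 highest (0.26 to 0.40), while Krt2, Krt78, Krt80 and Krt79 each vary in their own way.

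Krt79 gave no group difference that exceeded its spread. Its signal was 11015 and 2741 in 16 dpc ventral cells, against 12513 and 5978 in 16 dpc dorsal and 9363 and 16387 in virgin ventral cells. Replicate 2 was 0.249 and 0.478 times replicate 1 in the ventral and dorsal 16 dpc groups but 1.75 times replicate 1 in virgin cells, and all 3 groups overlapped. The log2 fold change over virgin cells was -1.17 (95% interval -2.52 to 0.17, limma adjusted p = 0.483), with 0.23 within replicate 1 and -2.58 within replicate 2, and over dorsal cells -0.65 (-1.999 to 0.69, adjusted p = 0.9999). For dorsal over virgin cells it was -0.52 (-1.86 to 0.83, adjusted p = 0.820). Markers of the upper follicle and sebaceous gland were in the same replicate order in the 16 dpc groups. Their summed signal over 9 genes was 33662 and 17503 in 16 dpc ventral, 30167 and 15864 in 16 dpc dorsal and 22603 and 25536 in virgin ventral cells. Among them Gata6, a transcription factor of the sebaceous duct, stood at 615 and 133, 595 and 194, and 419 and 516 in the same order of groups. Both 16 dpc arrays numbered 2 are also those of high actin ratio, and the part of follicle content or RNA quality in the Krt79 values was not tested.

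The wider programme of the suprabasal layers was read from lists of other genes. Of 16 measured spinous genes other than keratins 0 rose and 0 fell in either main comparison. Their median log2 fold change was -0.22 over virgin cells and -0.10 over dorsal cells, against 0.02 and -0.03 over all genes. At an unadjusted p under 0.05 there were 3 and 1 of them, with 11.6% and 5.09% of all genes. Notch3, a receptor active in suprabasal cells, stood at -0.45 over virgin cells, the desmosomal cadherin Dsc1 at -0.79 and the surface protein Lypd3 at -0.61, with adjusted p from 0.310 to 0.419. Over dorsal cells the fatty acid binding protein Fabp5 stood at 0.60 and the cornified envelope protein envoplakin, Evpl, at -0.33, with adjusted p of 0.968 and 0.984.

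Granular and cornified genes had means on both sides of 0, as the keratins did. Of 25 measured 19 had a lower mean over virgin cells and 6 a higher one (median -0.66). At an unadjusted p under 0.05 there were 10, with 11.6% of all genes. Past the adjusted threshold was 1 gene, which rose, with 0.136% of all genes. That gene was Tgm3, a transglutaminase that joins envelope proteins in cornifying cells. It rose over virgin cells (log2 fold change 1.55, adjusted p = 0.0317) and over dorsal cells (2.30, adjusted p = 0.0152). The study picked Tgm3 from these arrays as well, and reports the same direction for it by qPCR of skin tissue. The kallikrein proteases Klk7 (-2.22) and Klk5 (-1.05) and loricrin, Lor (-0.79), a main cornified envelope protein, did not pass over virgin cells, with adjusted p from 0.138 to 0.248. Over dorsal cells the list had a median of -0.09, with medians of -0.45 and 0.16 within replicates 1 and 2. There 2 genes had an unadjusted p under 0.05 (5.09% of all genes), and 1, Tgm3, rose past the adjusted threshold (0.0455%).

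Regulators of epidermal differentiation showed no call. Of 19 measured 14 had a lower mean over virgin cells (median -0.25) and 16 over dorsal cells (median -0.16), and 0 rose or fell by limma. At an unadjusted p under 0.05 there were 3 and 1 of them, with 11.6% and 5.09% of all genes. Zfp750, a factor of terminal differentiation, stood at -0.66 over virgin cells, Cebpa, a C/EBP factor of suprabasal cells, at -0.71 and Ets1 at 0.41, with adjusted p from 0.265 to 0.397. Over dorsal cells Ets1 stood at 0.58 and the AP-2 factor Tfap2c at -0.55, with adjusted p of 0.601 and 0.9999.

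Among the 41 other keratin genes on the array 19 were measured, and 0 rose or fell in either main comparison, with 8 and 4 at an unadjusted p under 0.05, against 11.6% and 5.09% of all genes. Over virgin cells 16 of the 19 had a lower mean and 3 a higher one (median log2 fold change -0.37), and over dorsal cells 9 had a lower and 10 a higher mean (median 0.02). The lowest p-values over virgin cells belonged to Krt33a, a hair keratin (-1.66), Krt23 (-1.34), Krt16 (1.27) and Krt8, a keratin of simple epithelia (-3.33). Their limma adjusted p were 0.218, 0.232, 0.243 and 0.248. Krt8 stood at 104 and 9.98 in 16 dpc ventral, 47.6 and 34.3 in 16 dpc dorsal and 220 and 474 in virgin ventral cells. Its usual partners Krt18 and Krt19 stood at -1.95 and -3.06 over virgin cells and at 1.69 and 2.45 over dorsal cells, with adjusted p of 0.248, 0.251, 0.766 and 0.809. Krt19 stood at only 5.29 and 2.82 in 16 dpc dorsal cells, below the lowest signal called present on those arrays (6.97 and 11.3). Its fold over dorsal cells is therefore a ratio to background. On 16 dpc ventral replicate 2 Krt8 (9.98) and Krt19 (9.71) also lay near the lowest signal called present there (7.58). Over virgin cells the log2 fold change of Krt8 was -1.09 within replicate 1 and -5.57 within replicate 2. For Krt19 these were -1.25 and -4.86. The wound-induced keratin Krt16 stood at 738 and 742 in 16 dpc ventral, against 306 and 693 in 16 dpc dorsal and 289 and 326 in virgin ventral cells. Its log2 fold change was 1.27 over virgin cells (adjusted p = 0.243) and 0.68 over dorsal cells (adjusted p = 0.9999). Krt6a, a partner of Krt16 at wound edges, stood at 1229 and 933 in 16 dpc ventral, 248 and 467 in 16 dpc dorsal and 189 and 1221 in virgin ventral cells, so that ventral and dorsal arrays at 16 dpc did not overlap while the virgin arrays lay far apart. Over 7 basal and wound-induced keratins the median was -0.08 over virgin and 0.02 over dorsal cells, with 0 calls.

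**Figure D4:**
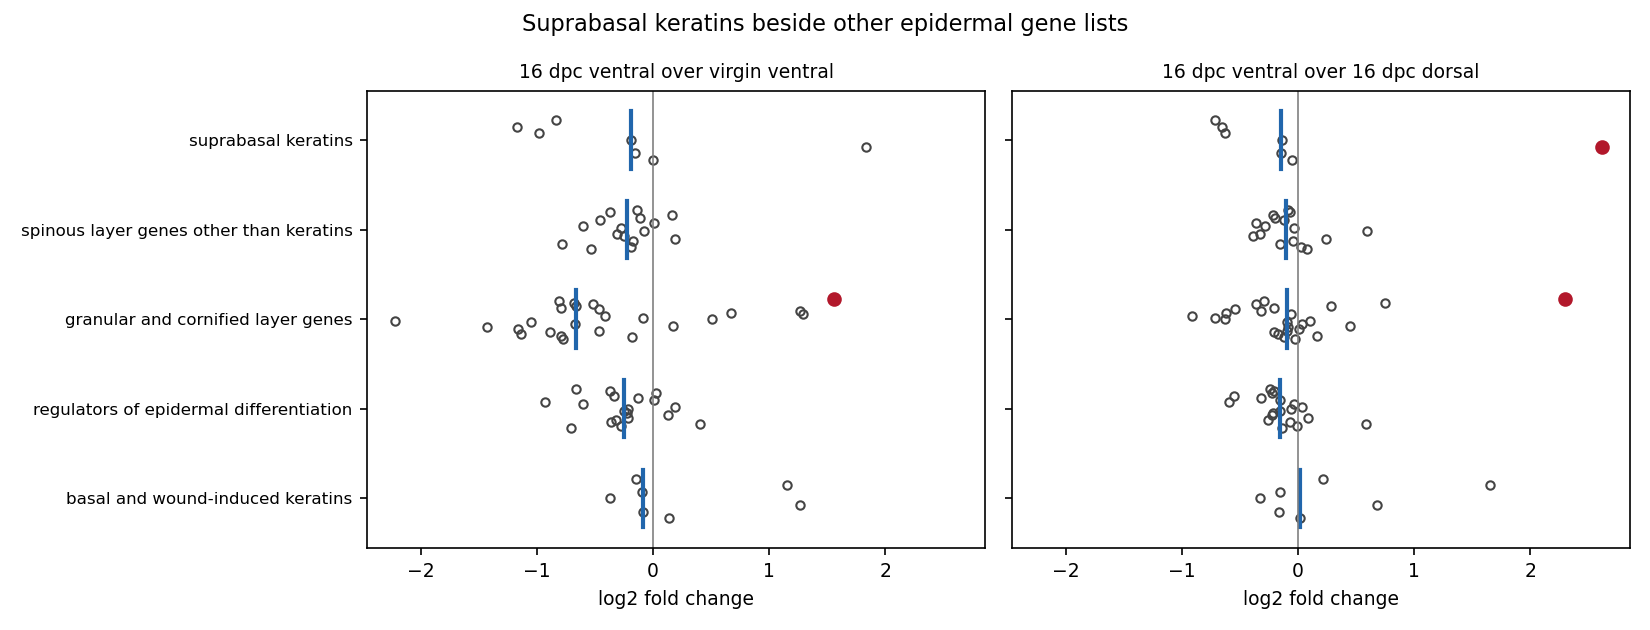
Log2 fold change (horizontal axis) of each measured gene of 5 lists in the 2 main comparisons, where open circles are genes short of the threshold, filled red circles genes past an adjusted p under 0.05 and blue bars the median of a list. Krt2 (1.83 and 2.62) stands furthest right of the suprabasal keratins and Tgm3 (1.55 and 2.30) of the granular genes. Over virgin cells other granular genes also lie to the right. Among them is Lce1d, at 151 and 302 in 16 dpc ventral against 80.5 and 94.4 in virgin ventral cells. The medians lie at or below 0 for 4 of the lists in both panels.

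The genes whose log2 signal followed Krt2 most closely over the 6 arrays, out of 10992 others, were Neto2 (Pearson r = 0.995), Igfals (0.987), Pik3r3 (0.978), Tgm3 (0.977) and Tacc2 (0.973). Neto2, an auxiliary subunit of glutamate receptors, stood at 113 and 92.0 in 16 dpc ventral, 45.5 and 42.8 in 16 dpc dorsal and 53.6 and 58.1 in virgin ventral cells. Tgm3 stood at 5648 and 6036, 1464 and 964, and 2036 and 1940 in the same order. Both share with Krt2 the order of the 3 groups, in which the 16 dpc ventral arrays stood above all others and the dorsal arrays below. Closest to Krt10 were Itm2b (0.998), the ribosomal protein gene Rpl7a (0.998), Itga6 (0.995), the translation factor Eef1a1 (0.994) and Lgals7 (0.993), a galectin of stratified epithelia. Itga6, the gene of the sorted antigen, stood at 15226 and 16846 in 16 dpc ventral, 15364 and 19079 in 16 dpc dorsal and 17403 and 16493 in virgin ventral cells. These correlations describe 6 arrays that share groups and array-wide brightness, and no test was made on them.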

How the data were processed

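The authors deposited a MAS5 signal intensity on a linear scale for every probe set of each Affymetrix mouse array, together with a present, marginal or absent detection call. The submitters' processing notes name Affymetrix Expression Console, version 1, and the trimmed mean was 500.003 on each array. The genome build was not given in the sources used here. The value table of the series held the same intensities (largest relative difference 5.00e-06).

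A floor of 1 was applied before log2. Where several of the 34945 single-gene probe sets named a gene, the brightest stood for it. A gene entered the test if a group had it present on both its arrays, which left 10993 genes. limma 3.58.1 (lmFit, eBayes with trend; R 4.3.3) fitted the 3 groups on 6 arrays, and two-sided p-values were adjusted by Benjamini-Hochberg across these genes, with 0.05 as the threshold. The fit had 3 residual and 5.79 prior degrees of freedom. Its code was run on simulated arrays with large changes and a capped spread. That run cannot show how well the fit finds smaller differences or handles genes of wider spread. The 95% intervals are for single genes. Errors of signals are SDs, and folds come from mean log2 signals. The lowest signal called present was 6.34 to 11.3 per array. Alternatives covered floors, normalization, detection filters, probe set choice, variance model, groups in the fit, the replicate number as a block and leaving out arrays. The members and gene lists were chosen with earlier results of these data known. Named genes were the 7 members, up to 4 genes per list by smallest p, and the 5 genes most like Krt2 and Krt10. Other cell type markers were named outside that rule, among them Gata6, Csn2, Krt5, Epcam, Csf1r, Cd207 and H2-Aa. Lce1d was given in a caption for a comparison in which it was not among the smallest p. Plots were drawn with matplotlib 3.10.9.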

Additional observations from a re-analysis of the deposited data

How the results depend on the processing

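Over virgin ventral cells, the count of suprabasal keratins that rose was 0 and became 1 (Krt2) with 16 added to every signal, with quantile normalization, with genes present on all 6 arrays, with only the 2 groups compared, with the replicate block and, chosen after seeing the data, without both 16 dpc arrays numbered 2, whose actin ratio was high. The count that fell was 0 and became 1 with the replicate block (Krt78) and 1 without both arrays numbered 2 (Krt80). Without 1 array at a time the count that rose ran from 0 to 1, with 1 (Krt2) on leaving out either dorsal array. Over 16 dpc dorsal cells the count that rose was 1 and became 0 with the mean of all probe sets (adjusted p of Krt2 0.0683), without a variance trend (0.125) and with only the 2 groups compared (0.0529), and ran from 0 to 1 without 1 array at a time. One test per probe set, over 23017 probe sets, gave 0 calls among the members, against 1 with a test per gene. The cause was not tested, apart from the number of samples or features in a fit.

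Members short of the threshold changed sign in some settings, among them Krt79 over dorsal cells (-0.65 on all 6 arrays, 0.35 without 16 dpc ventral replicate 2) and, for dorsal over virgin cells without 16 dpc dorsal replicate 2, Krt79 (-0.52 on all arrays) and Krt78 (-0.35). Quantile normalization gave log2 fold changes of 0.0509, 0.0442 and 0.0251 for Krt1, Krt10 and Krt77 over dorsal cells. Without both arrays numbered 2 they were 0.0430, 0.0144 and 0.0774, Krt1 over virgin cells was -0.12, and for dorsal over virgin cells Krt1 was -0.17, Krt78 0.11, Krt79 0.0147 and Krt80 0.00540. Without 1 array at a time Krt1 ran from -0.12 to 0.13 over virgin cells. Over dorsal cells the ranges were -0.28 to 0.17 for Krt1, -0.42 to 0.12 for Krt10, -0.44 to 0.17 for Krt77 and -1.66 to 0.35 for Krt79. For dorsal over virgin cells they were -0.17 to 0.28 for Krt1, -0.27 to 0.26 for Krt10, -0.36 to 0.25 for Krt77, -0.81 to 0.11 for Krt78, -1.05 to 0.0147 for Krt79 and -0.24 to 0.00540 for Krt80. Krt2 kept its direction in all 17 settings of each comparison, with log2 fold changes from 2.32 to 2.92 over dorsal and from 1.53 to 2.13 over virgin ventral cells.

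The replicate number as a block rests on a shared header prefix. Differences between replicates 1 and 2 correlated across genes at 0.448 between the dorsal and ventral 16 dpc groups, but at 0.03 and 0.007 between these and the virgin group. The 2 arrays per group, and signal over background on them, limit the precision of every value. Where leaving arrays out leaves a group with 1 array, that array is assumed to vary like the others.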
